A study of Mus musculus with 12 samples.

Results

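A list of 34 genes that mark the epithelium of the large intestine was followed in RNA of sorted colonic mononuclear phagocytes. Each gene was represented by the row of the value table that carries its symbol alone, and 33 of the 34 had such a row, of 19938 genes with a row of their own. The exception was Fcgbp, the IgG Fc-binding protein of mucus. The genes were grouped by role into junction and adhesion, cytoskeleton, absorptive and transport, goblet and mucus, and defence and response genes.

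The series compared mice that lack the transcription factor Runx3 in mononuclear phagocytes (Runx3Δ, Runx3fl/fl with a Cre transgene driven by the CD11c promoter) with WT littermates (Runx3 +/+), all on a C57Bl/6 background and 6 to 8 weeks old. Resident macrophages (RM, F4/80+) and CD11b+ dendritic cells (CD11b+ DC, F4/80-) were sorted from the cecum as CD45+CD11c+MHCII+CD11b+Ly6c- cells, after the epithelium had been shaken off in EDTA and the remaining tissue digested. There were 4 Runx3Δ and 3 WT samples of RM, and 3 Runx3Δ and 2 WT samples of CD11b+ DC, and each of the 12 arrays held RNA pooled from 3 to 4 mice of both sexes. The labels give a litter number to each sample: replicates 1 to 4 of Runx3Δ RM and 1 to 3 of WT RM carry the litters of the same number, Runx3Δ CD11b+ DC replicates 1 to 3 carry litters 1, 3 and 4, and WT CD11b+ DC replicates 1 and 2 carry litters 2 and 3.

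Values are log2 intensities, in which a difference of 1 stands for a doubling. Array medians lay between 5.33 and 5.52. The genes listed for macrophages averaged 11.3 to 11.7 in Runx3Δ RM and 11.4 to 11.7 in WT RM, against 9.55 to 10.01 in Runx3Δ CD11b+ DC and 9.82 to 9.91 in WT CD11b+ DC, and all 11 were at 5 or more in every sample. The 8 genes listed for dendritic cells averaged 9.09 to 9.43 in Runx3Δ RM and 9.11 to 9.55 in WT RM, against 10.4 in Runx3Δ and 10.5 in WT CD11b+ DC. Genes of other cells were measured too. Those of B and plasma cells averaged 8.81 to 9.34 in Runx3Δ RM and 8.51 to 9.92 in WT RM, and those of the stroma averaged 6.03 to 6.59 and 6.20 to 6.94 in the same groups.

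The intestinal epithelium is a sheet of absorptive cells, mucus-making goblet cells and their precursors, held together by cadherins and claudins and stiffened by keratins. Macrophages and dendritic cells of the lamina propria lie directly beneath it, and some dendritic cells are known to make E-cadherin and EpCAM themselves. Several genes of the list, such as Dmbt1, Pigr, Reg3b and Reg3g, are known for being switched on in epithelial cells during inflammation or contact with bacteria.

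Not every gene of the list reached a log2 level of 5, which lies near the array medians. Of the 33 genes, 14 were at a log2 level of 5 or more in all 12 samples, 13 in some of them, and 6 in none. The 6 were Krt20, Car4, Slc26a3, Cftr, Tspan8 and Reg3g. In RNA of a sorted population, the number of epithelial cells among the sorted cells and the amount of such RNA per cell cannot be told apart.

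Promoters of the list were read from RefSeq (GRCm38.p6), which gave 27 windows of 250 bases before the start site for 25 of the genes. The letters TTTATNG, as the intestinal CDX factors bind, were looked for on both strands and stood in the windows of 6 genes (Agr2, Epcam, Fabp2, Gpx2, Krt20 and Reg3g), against 9.81% of all 32851 windows. CAAAGTNCA, a core of the HNF4 site, stood in those of Fabp2 and Muc13 (1.19% of all windows), and TATAAA, which many regulated promoters carry near the start, in those of Krt20, Muc2, Reg3b, Reg3g and Slc26a3 (12.4%). TTTATNG can overlap TATAAA read on the other strand. The RUNX letters TGTGGT (14% of all windows) and TGCGGT (5.1%) stood in 0 of the 27 windows. A match is a description of these letters, not evidence of binding. The windows of 4 genes are given here with the matches in capitals. Reg3b (chr6:78370635-78370884, plus strand) and Reg3g (chr6:78468875-78469124, minus strand) are shown because both genes were highest in the same RM sample, Gpx2 (chr12:76795555-76795804, minus strand) because its RM groups did not overlap, and Fabp2 (chr3:122894822-122895071, plus strand) because it stood out in single samples.
Reg3b: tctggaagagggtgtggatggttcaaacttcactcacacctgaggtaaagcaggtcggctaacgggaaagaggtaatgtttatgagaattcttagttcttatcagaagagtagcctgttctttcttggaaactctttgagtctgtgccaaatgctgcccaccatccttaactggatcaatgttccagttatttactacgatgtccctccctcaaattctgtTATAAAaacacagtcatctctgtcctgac
Reg3g: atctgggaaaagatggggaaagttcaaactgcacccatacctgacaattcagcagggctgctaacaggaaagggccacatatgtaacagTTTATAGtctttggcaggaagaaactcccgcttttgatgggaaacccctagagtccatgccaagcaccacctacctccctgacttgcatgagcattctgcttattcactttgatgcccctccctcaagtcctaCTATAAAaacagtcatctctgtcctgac
Gpx2: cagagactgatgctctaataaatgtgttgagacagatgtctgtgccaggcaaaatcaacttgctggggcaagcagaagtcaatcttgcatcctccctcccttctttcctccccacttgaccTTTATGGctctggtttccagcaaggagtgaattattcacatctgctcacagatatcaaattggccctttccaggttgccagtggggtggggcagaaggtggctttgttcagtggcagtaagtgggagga
Fabp2: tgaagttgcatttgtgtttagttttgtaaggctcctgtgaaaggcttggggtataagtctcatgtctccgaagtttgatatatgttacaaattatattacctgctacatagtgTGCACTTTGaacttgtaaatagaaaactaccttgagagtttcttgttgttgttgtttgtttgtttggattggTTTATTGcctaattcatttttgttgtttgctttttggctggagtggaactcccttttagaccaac
The Reg3b and Reg3g windows were identical at 177 of 250 positions (70.8%). Their TATAAA began 29 and 27 bases before the start site. In Reg3g the CDX letters lay over TATAAA at both places where they occurred, 161 and 28 bases before the start. The CDX letters began 129 bases before the start in Gpx2 and 65 in Fabp2, where the HNF4 letters began 137 bases before it.

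In RM, the first comparison asked how the loss of Runx3 changed the transcriptome of resident macrophages. Epithelial genes were more often higher than lower in Runx3Δ RM: 26 of 33 had a log2 fold change above 0 and 7 below, with a median of 0.21, against a median of 0.03 over all 35556 rows. Blocked by litter the split was 22 to 11 and the median 0.16, and with litters 2 and 3 alone 23 to 10 and 0.10. The median was 0.35 without WT RM replicate 1 and 0.33 without Runx3Δ RM replicate 2, and 0.13 without WT RM replicate 3 and 0.12 without either Runx3Δ RM replicate 1 or 4. At the thresholds of the methods, a 1.5-fold difference and an unadjusted p of 0.05, here taken from limma, 5 of 33 were higher (15.2%), namely Car2, Clca3b, Dmbt1, Gpx2 and Pigr, and 0 were lower. Over all rows those thresholds were met by 0.728% upwards and 0.731% downwards. The methods' own test gave 4 of 33, without Pigr, against 0.447% of all rows upwards and 0.45% downwards, where it gave 0. With limma and adjustment over all rows, 0 of the 33 passed an adjusted p of 0.05, the lowest adjusted p was 0.235, and the methods' test gave 0 as well. At an unadjusted p under 0.05 there were 8 of the 33 and 2832 of all rows (7.96%), and 0.0141% of all rows passed after adjustment. Every Runx3Δ RM sample lay above every WT RM sample for 6 genes (Cdh1, Cldn7, Car2, Clca3b, Dmbt1 and Gpx2), or 18.2% against 4.12% of all rows, and below for 0, against 3.43% of all rows.

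By role, all 6 defence and response genes and all 6 junction genes had values above 0 in RM, with medians of 0.49 and 0.25. In the fit with the litter as a block it was 5 of 6 in each, with Reg3b (-0.02) and Cldn4 (-0.01) just below 0, and the medians were 0.36 and 0.22. Without the block the other medians were 0.20 for 5 cytoskeleton genes, 0.10 for 10 absorptive genes and 0.08 for 6 goblet genes. Goblet genes were evenly split, with 3 above 0 and 3 below. With the block the median of the cytoskeleton genes was 0.13, that of the absorptive genes 0.03 and that of the goblet genes 0.01. Of the 5 genes at the thresholds, 3 were defence and response genes and 2 were absorptive genes.

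**Figure D1:**
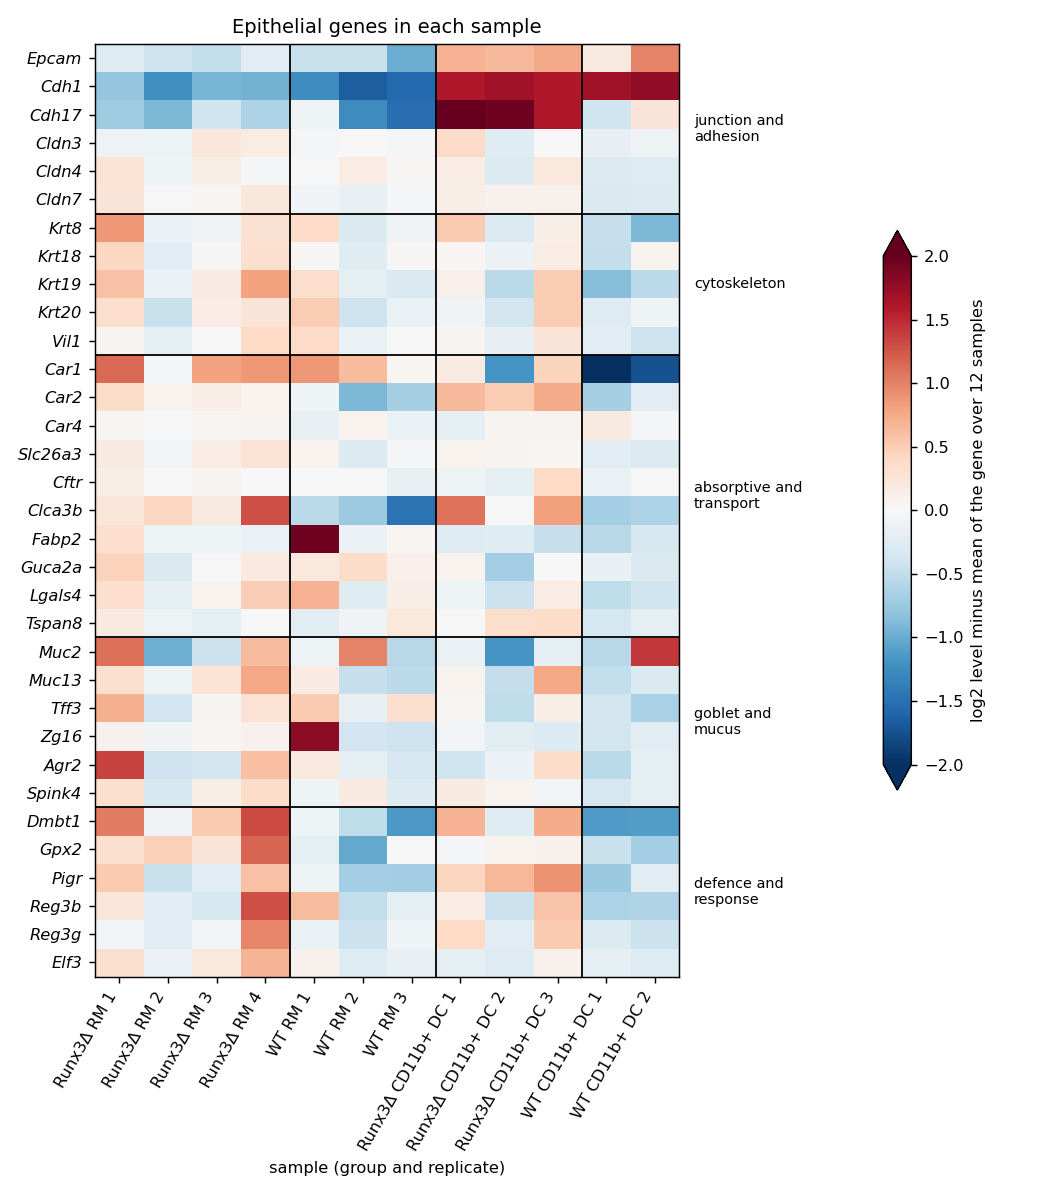
Log2 level of each of the 33 epithelial genes (rows, by role) in each of the 12 samples (columns), minus the mean of that gene over the 12 samples; red is above and blue below the mean. Cdh1 and Epcam part the cell types, while Dmbt1 and Clca3b were red in most Runx3Δ samples, and Fabp2 and Zg16 in WT RM replicate 1.

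Among the absorptive genes, Clca3b belongs to the family of calcium-activated chloride channel regulators. Its log2 level was 6.15, 6.32, 6.08 and 7.19 in the 4 Runx3Δ RM samples, against 5.36, 5.18 and 4.43 in the 3 WT RM samples. The groups did not overlap, with Runx3Δ replicate 4 highest and WT replicate 3 lowest. The means were 6.43 ± 0.51 (SD, n = 4) in Runx3Δ RM and 4.99 ± 0.49 (SD, n = 3) in WT RM, a log2 fold change of 1.44 ± 0.33 (SE) with an adjusted p of 0.235. In CD11b+ DC the gene was at 6.98, 5.90 and 6.72 in Runx3Δ samples, against 5.23 and 5.29 in WT samples, a log2 fold change of 1.28 ± 0.39 (SE, adjusted p = 0.525). These groups did not overlap either, and the lowest Runx3Δ value was that of litter 3.

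Car2, carbonic anhydrase 2, helps absorptive cells exchange bicarbonate, and is also known in other cell types. It was at 8.02, 7.72, 7.78 and 7.73 in Runx3Δ RM, against 7.57, 6.76 and 6.98 in WT RM. The lowest Runx3Δ sample stood just above the highest WT sample, which was WT replicate 1. The log2 fold change was 0.71 ± 0.18 (SE, adjusted p = 0.306). Without WT RM replicate 1 it was 0.94 and passed after adjustment (adjusted p = 0.0482, with 0.790 as the highest of all alternatives), and without WT RM replicate 2 it was 0.53 and under 1.5-fold. In CD11b+ DC, Car2 was at 8.30, 8.17 and 8.40 in Runx3Δ samples, against 6.99 and 7.43 in WT samples, without overlap (log2 fold change 1.08 ± 0.22 SE, adjusted p = 0.265).

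Car1, carbonic anhydrase 1, is a colonic isoform of the same enzyme, and of the absorptive genes it had the widest range over the 12 samples. It was at 9.83, 8.65, 9.50 and 9.56 in Runx3Δ RM, against 9.57, 9.33 and 8.74 in WT RM, where the groups overlapped (0.17 ± 0.38 SE, adjusted p = 0.933). In CD11b+ DC it was at 8.86, 7.52 and 9.13 in Runx3Δ samples, against 6.69 and 6.95 in WT samples. All 3 Runx3Δ samples lay above both WT samples there, and the sample of litter 3 lay nearest to them. The log2 fold change was 1.69 ± 0.46 (SE, adjusted p = 0.456), and 1.11 with the litter as a block. The fold changes of RM and CD11b+ DC differed by -1.51 ± 0.60 (SE, adjusted p = 0.9996).

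Dmbt1 encodes a secreted scavenger receptor that binds bacteria and is made by epithelial cells. It was at 7.50, 6.38, 6.99 and 7.77 in Runx3Δ RM, against 6.35, 5.95 and 5.31 in WT RM. The groups did not overlap, but Runx3Δ replicate 2 and WT replicate 1 were nearly level. Its log2 fold change was 1.29 ± 0.35 (SE, adjusted p = 0.354). In CD11b+ DC, Dmbt1 was at 7.15, 6.21 and 7.21 in Runx3Δ samples, against 5.33 and 5.34 in WT samples, again without overlap. There the log2 fold change was 1.53 ± 0.42 (SE, adjusted p = 0.476), or 0.92 with the litter as a block.

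Gpx2 is the glutathione peroxidase of the gastrointestinal epithelium. It was at 6.07, 6.21, 6.00 and 6.91 in Runx3Δ RM, against 5.54, 4.72 and 5.74 in WT RM, with replicate 4 the highest of the Runx3Δ samples and no overlap. This gave a log2 fold change of 0.96 ± 0.25 (SE, adjusted p = 0.328). In CD11b+ DC it was at 5.71, 5.81 and 5.83 in Runx3Δ samples, against 5.29 and 5.06 in WT samples. The groups stood apart there too, with a log2 fold change of 0.61 ± 0.30 (SE, adjusted p = 0.769) that missed the unadjusted p of 0.05 with limma and met the thresholds by the methods' own test.

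Pigr, the polymeric immunoglobulin receptor, carries IgA and IgM across epithelial cells into the lumen. It was at 7.00, 6.02, 6.25 and 7.05 in Runx3Δ RM, against 6.37, 5.79 and 5.77 in WT RM, so that the groups overlapped and only replicates 1 and 4 of Runx3Δ RM lay above all WT samples. The log2 fold change of 0.60 ± 0.27 (SE, adjusted p = 0.620) met the thresholds narrowly (unadjusted p = 0.0486 with limma) and did so under 9 of 23 alternatives. At the same fold change it missed the unadjusted p under the methods' test, with the samples of the 2 groups alone, with an intensity trend, and without any 1 of the Runx3Δ CD11b+ DC samples. It was 0.57 with array weights and 0.56 with median centring, and missed the unadjusted p there too. With the litter as a block it was 0.46, and without WT replicate 2, WT replicate 3, Runx3Δ replicate 1 or Runx3Δ replicate 4 it was 0.51, 0.50, 0.46 and 0.45, none of them at the thresholds. In CD11b+ DC, Pigr was at 6.90, 7.13 and 7.37 in Runx3Δ samples, against 5.73 and 6.26 in WT samples, and the groups did not overlap. The log2 fold change there was 1.14 ± 0.32 (SE, adjusted p = 0.488), 0.66 with the litter as a block, and 0.87 and no longer at the thresholds without WT CD11b+ DC replicate 1.

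**Figure D2:**
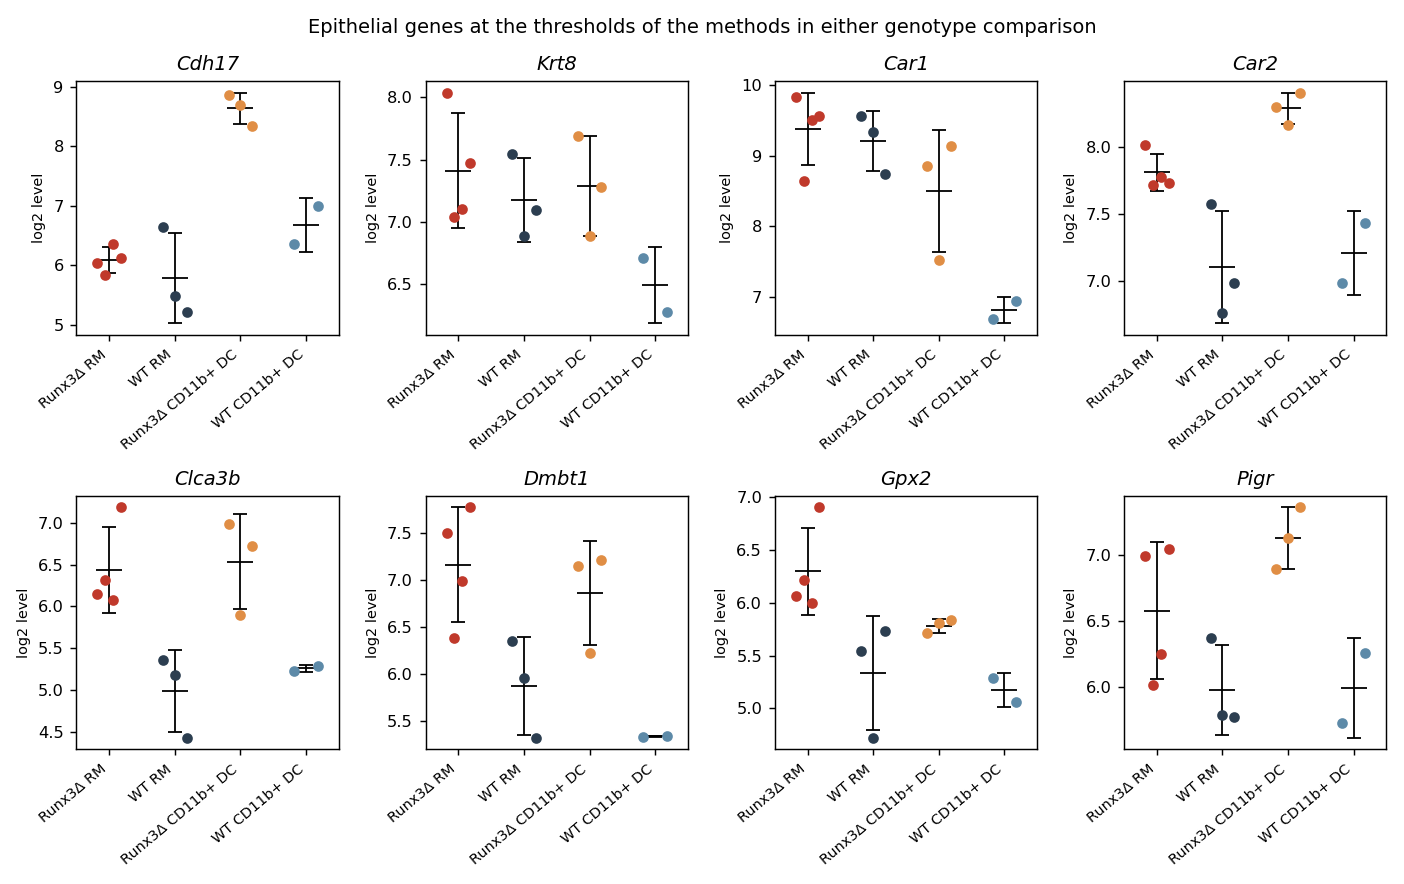
Log2 level of the 8 epithelial genes at the thresholds of the methods in either cell type; points are samples, and bars are the mean ± SD of Runx3Δ RM (n = 4), WT RM (n = 3), Runx3Δ CD11b+ DC (n = 3) and WT CD11b+ DC (n = 2), on axes that do not start at 0. Car2, Clca3b, Dmbt1 and Gpx2 had all Runx3Δ samples above all WT samples in both cell types, while Cdh17, Krt8, Car1 and Pigr did so in CD11b+ DC only.

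In CD11b+ DC, the same question was asked of the dendritic cells. Of the 33 genes, 30 had a log2 fold change above 0 and 3 below (Cdh1, Car4 and Muc2), with a median of 0.33, against 0.01 over all rows. With the litter as a block 19 were above 0 and 14 below, with a median of 0.09, and with litters 2 and 3 alone, in which Runx3Δ CD11b+ DC is a single sample, 22 were above and 11 below, with a median of 0.15. At the thresholds of the methods 7 of 33 were higher (21.2%): Cdh17, Krt8, Car1, Car2, Clca3b, Dmbt1 and Pigr. None were lower, and over all rows the shares were 0.633% higher and 1.5% lower. The methods' own test gave 5 of 33 (Cdh17, Car2, Dmbt1, Gpx2 and Pigr), against 0.399% of all rows upwards and 0.816% downwards, where it gave 0. With limma, 0 of 33 passed after adjustment, as with the methods' test. An unadjusted p under 0.05 was seen for 10 of the 33, against 6.74% of all rows, and the share of all rows that passed after adjustment was 0%. Every Runx3Δ sample lay above both WT samples for 15 genes (45.5%), against 13.1% of all rows, and below them for Cdh1 alone, against 12.6% of all rows.

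Here too the defence and response genes had the highest median of the roles, 0.66 over 6 genes, all above 0. After blocking by litter 4 of the 6 were above 0 and the median was 0.27, with Reg3b at -0.01 and Elf3 at -0.19. The medians of the other roles were 0.36 for cytoskeleton, 0.32 for absorptive and for goblet, and 0.23 for junction genes. With the block they were 0.09 for cytoskeleton and for absorptive and 0.15 for junction genes, and that of the goblet genes was below 0 (-0.15, with 4 of 6 below). Stromal genes had log2 fold changes below 0 for 7 of 7 in both cell types, with medians of -0.24 in RM and -0.59 in CD11b+ DC. Genes that respond early to cell stimulation and to tissue dissociation were below 0 for 8 of 8 in both cell types, with medians of -0.58 in RM and -0.47 in CD11b+ DC. Genes of T cells were above 0 for 5 of 6 in both cell types, with medians of 0.29 in RM and in CD11b+ DC. The remaining one in CD11b+ DC, at -1.22, was lower at the thresholds (16.7%, against 1.5% of all rows). Genes of B and plasma cells were above 0 for 3 of 6 in RM (median -0.01) and 6 of 6 in CD11b+ DC (median 0.14). Medians in RM and in CD11b+ DC were -0.10 and 0.05 for macrophage, 0.13 and -0.04 for dendritic cell, and 0.01 and -0.42 for endothelial genes. In RM 10 of 11 macrophage genes were below 0. The part of these lists in the epithelial values was not tested.

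Cdh17 is a cadherin of intestinal epithelial cells, and had the widest range of the junction genes. In CD11b+ DC it was at 8.87, 8.69 and 8.34 in Runx3Δ samples, against 6.35 and 7.00 in WT samples. The 3 Runx3Δ samples lay close together, at least 1 log2 unit above both WT samples. Means were 8.63 ± 0.27 (SD, n = 3) in Runx3Δ and 6.68 ± 0.46 (SD, n = 2) in WT CD11b+ DC, and the log2 fold change of 1.96 ± 0.36 (SE, adjusted p = 0.252) was the highest of the 33 genes. In RM it was at 6.04, 5.84, 6.35 and 6.12 in Runx3Δ samples, against 6.65, 5.49 and 5.22 in WT samples, where WT replicate 1 was above all Runx3Δ samples (0.30 ± 0.30 SE, adjusted p = 0.844). In RM the fold change was 0.73 on the log2 scale without WT replicate 1, at the thresholds of the methods. RM and CD11b+ DC differed in this fold change by -1.65 ± 0.47 (SE, adjusted p = 0.9996).

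Krt8, a keratin of simple epithelia, had the widest range of the cytoskeleton genes. It was at 7.69, 6.89 and 7.28 in Runx3Δ CD11b+ DC, against 6.71 and 6.27 in WT CD11b+ DC, without overlap (0.79 ± 0.32 SE, adjusted p = 0.689). Its log2 fold change fell below 1.5-fold with the litter as a block (0.43) and without WT replicate 2 (0.58), and missed the unadjusted p without Runx3Δ replicate 1 (0.59) or 3 (0.80). In RM it was at 8.04, 7.04, 7.10 and 7.47 in Runx3Δ samples, against 7.54, 6.88 and 7.09 in WT samples, and the groups overlapped.

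**Figure D3:**
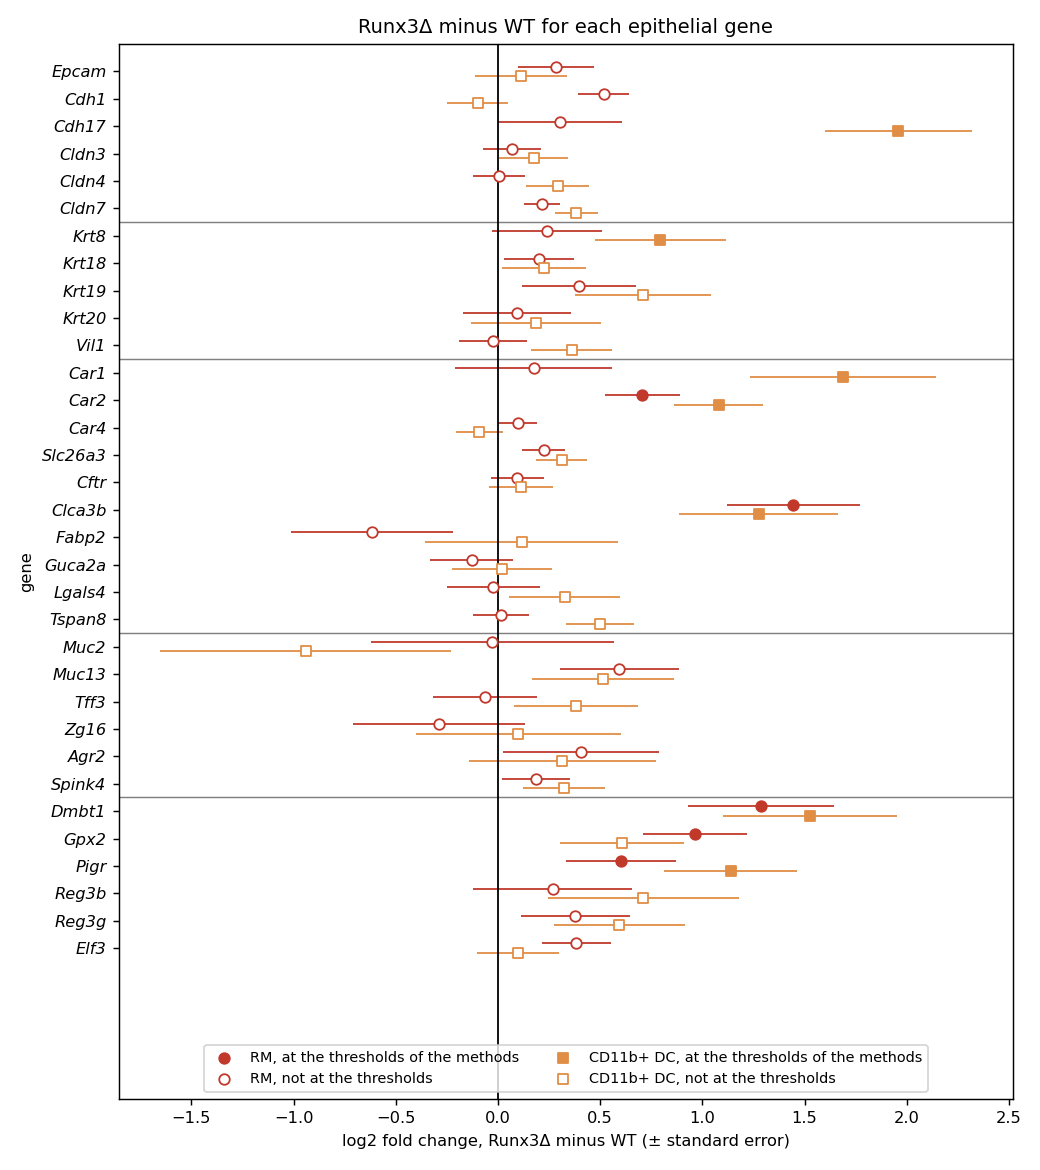
Log2 fold change (Runx3Δ minus WT, horizontal axis) with its standard error for each of the 33 epithelial genes, with circles for RM and squares for CD11b+ DC; filled symbols met the thresholds of the methods, which 5 genes did in RM and 7 in CD11b+ DC. Most symbols lie to the right of 0, and Muc2 in CD11b+ DC and Fabp2 in RM lie farthest to the left.

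Muc2, the gel-forming mucin of goblet cells, had the widest range of the goblet genes, and its groups overlapped in both cell types. It was at 6.68, 4.60, 5.15 and 6.20 in Runx3Δ RM, against 5.48, 6.57 and 5.02 in WT RM (-0.03 ± 0.60 SE, adjusted p = 0.995). In CD11b+ DC it was at 5.44, 4.39 and 5.37 in Runx3Δ samples, against 5.03 and 6.99 in WT samples (-0.94 ± 0.71 SE, adjusted p = 0.866). Samples above 6 stood in both RM groups and in WT CD11b+ DC, where replicate 2 was the highest of all, while the 3 Runx3Δ CD11b+ DC samples were at 5.44 or less. The log2 fold change in CD11b+ DC was -1.61 with the litter as a block. It was -1.92 without WT CD11b+ DC replicate 1, where replicate 2 alone stood for the WT group. The mean of the Runx3Δ CD11b+ DC samples, 5.07, lay near WT replicate 1 at 5.03.

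The other goblet genes met the thresholds in neither cell type. The transmembrane mucin Muc13 lay between 4.88 and 6.19 over the 12 samples, with log2 fold changes of 0.59 in RM and 0.51 in CD11b+ DC. The trefoil peptide Tff3 lay between 5.29 and 6.65, the protease inhibitor Spink4 between 5.30 and 6.00, and Agr2, a protein disulfide isomerase needed for mucin folding, between 4.68 and 6.59. Agr2 was at 6.59 in Runx3Δ RM replicate 1 and at 5.84 in replicate 4, and at or below 5.59 in all other samples.

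Of the remaining absorptive and cytoskeleton genes none met the thresholds. Krt18 and Krt19, keratins of simple epithelia, lay between 5.38 and 6.27 and between 4.91 and 6.57. Krt20, the keratin of mature surface cells, lay between 3.67 and 4.62, and villin (Vil1), which bundles the actin of microvilli, between 4.59 and 5.40. The chloride-bicarbonate exchanger Slc26a3 (3.36 to 3.94), the chloride channel Cftr (3.21 to 3.80), membrane-bound Car4 (4.10 to 4.46) and the tetraspanin Tspan8 (4.15 to 4.86) stayed below 5 throughout. Guca2a, which encodes guanylin, lay between 4.03 and 5.18, and the lectin Lgals4 between 5.04 and 6.25.

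A few genes stood out in single samples, chosen after their values had been seen. Fabp2, the intestinal fatty acid-binding protein, was at 6.69 in WT RM replicate 1 and between 4.20 and 5.09 in the other 11 samples. Zg16, a goblet cell lectin that binds bacteria, was at 5.98 in the same sample and between 3.78 and 4.29 in the others. The means of Fabp2 were thus 4.76 ± 0.23 (SD, n = 4) in Runx3Δ RM and 5.37 ± 1.15 (SD, n = 3) in WT RM, and 1 WT sample set that order. Without WT RM replicate 2, Fabp2 met the thresholds of the methods as lower in Runx3Δ RM (-0.99).

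Reg3b and Reg3g encode antibacterial lectins of the epithelium. Reg3b was at 4.43, 3.98, 3.86 and 5.48 in Runx3Δ RM, against 4.81, 3.70 and 4.01 in WT RM. Reg3g was at 3.68, 3.53, 3.68 and 4.72 in Runx3Δ RM, against 3.60, 3.32 and 3.65 in WT RM. Runx3Δ replicate 4 was the highest RM sample for both genes, and for the epithelial transcription factor Elf3 (5.33, against 4.39 to 4.96 in the other RM samples). In CD11b+ DC, Reg3b was at 4.33, 3.75 and 4.75 in Runx3Δ samples, against 3.55 and 3.58 in WT samples, and Reg3g was at 4.14, 3.54 and 4.27 against 3.46 and 3.32. Runx3Δ samples lay above both WT samples for either gene, as they did for 13.1% of all rows, and the sample of litter 3 was the lowest Runx3Δ sample for both. The log2 fold changes were 0.71 for Reg3b and 0.59 for Reg3g, and -0.01 and 0.19 with the litter as a block. All these CD11b+ DC values lay below 5 and below the array medians.

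**Figure D4:**
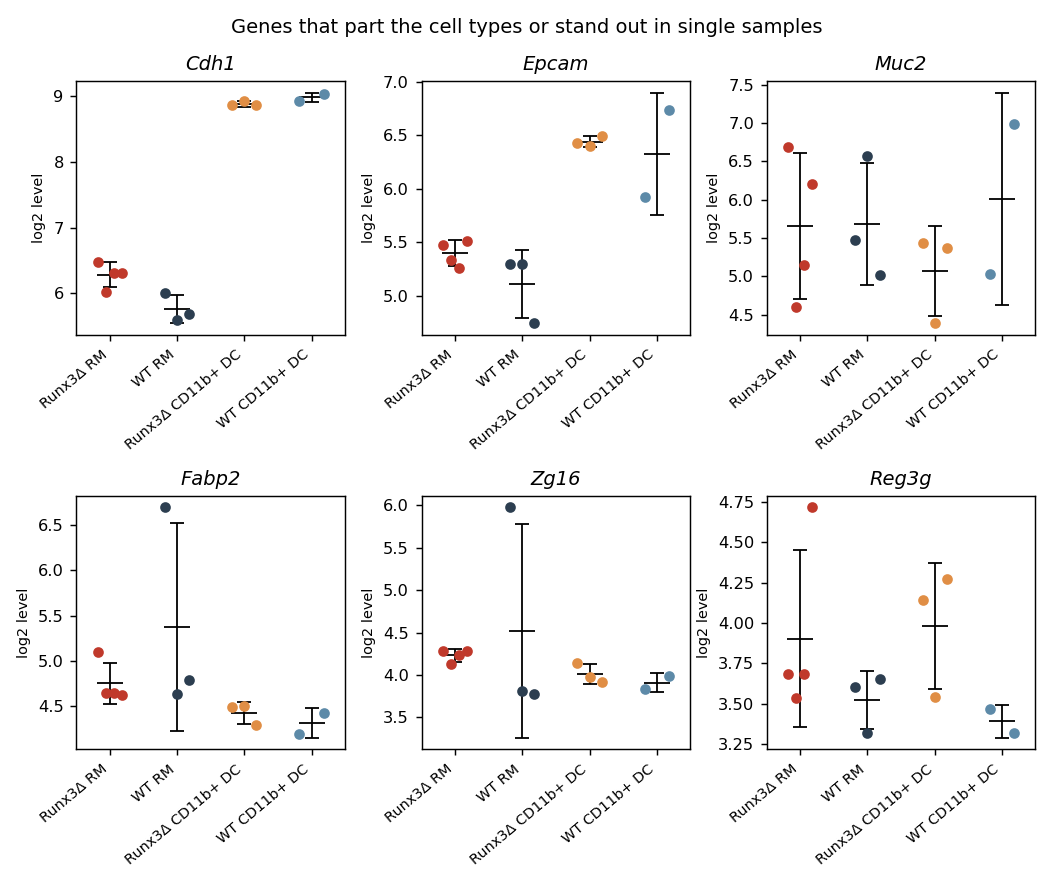
Log2 level of Cdh1, Epcam, Muc2, Fabp2, Zg16 and Reg3g; points are samples, and bars are the mean ± SD of Runx3Δ RM (n = 4), WT RM (n = 3), Runx3Δ CD11b+ DC (n = 3) and WT CD11b+ DC (n = 2), on axes that do not start at 0. Cdh1 parts RM from CD11b+ DC, and 1 WT RM sample lies far above the rest for Fabp2 (6.69) and Zg16 (5.98).

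The epithelial genes also differed between samples of the same genotype, and the high samples shared litters. The mean level of the 33 genes was 5.82, 5.28, 5.49 and 5.87 in Runx3Δ RM of litters 1 to 4, against 5.65, 5.21 and 5.17 in WT RM of litters 1 to 3. In CD11b+ DC it was 5.74, 5.42 and 5.85 in Runx3Δ samples of litters 1, 3 and 4, against 5.11 and 5.28 in WT samples of litters 2 and 3. All samples of litters 1 and 4 were at 5.65 or more, and all samples of litters 2 and 3 at 5.49 or less. WT RM replicate 1, at 5.65, was the only WT sample of litters 1 and 4. Of the 7 RM samples, Runx3Δ replicate 1 had the highest value of 12 genes and Runx3Δ replicate 4 of 13, WT replicate 1 of 5, and each of the others of at most 1. Of the 5 CD11b+ DC samples, Runx3Δ replicate 3 had the highest value of 19 genes and Runx3Δ replicate 1 of 9.

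No WT sample came from litter 4, and no WT CD11b+ DC sample from litter 1, so that for these samples litter and genotype cannot be told apart. Within litters, Runx3Δ RM was higher than WT RM for 25, 20 and 25 of the 33 genes in litters 1, 2 and 3, with median differences of 0.24, 0.04 and 0.20, against medians of 0.05, 0.01 and 0.02 over all rows. In CD11b+ DC, litter 3 was the only litter with both genotypes. There Runx3Δ was higher than WT for 20 genes, with a median of 0.10 against 0.01 over all rows. The genes that were higher made up 75.8%, 60.6% and 75.8% in the 3 RM pairs, against 56.2%, 50.9% and 53.3% of all rows. In the CD11b+ DC pair it was 60.6%, against 52.5% of all rows. Car2, Clca3b, Dmbt1, Gpx2 and Pigr were higher in the Runx3Δ sample of all 3 RM pairs and of the CD11b+ DC pair. Their differences ranged over the 3 RM pairs between 0.44 and 0.96 for Car2, 0.80 and 1.65 for Clca3b, 0.43 and 1.67 for Dmbt1, and 0.23 and 0.62 for Pigr, and the lowest difference of Gpx2 was 0.26. With litters 2 and 3 alone, 5 genes met the thresholds in RM, which were Cdh17 (0.74), Car2 (0.88), Clca3b (1.39), Dmbt1 (1.05) and Gpx2 (0.88), or 15.2% against 1.11% of all rows upwards in the same samples, and 0 were lower, against 1.68%.

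**Figure D5:**
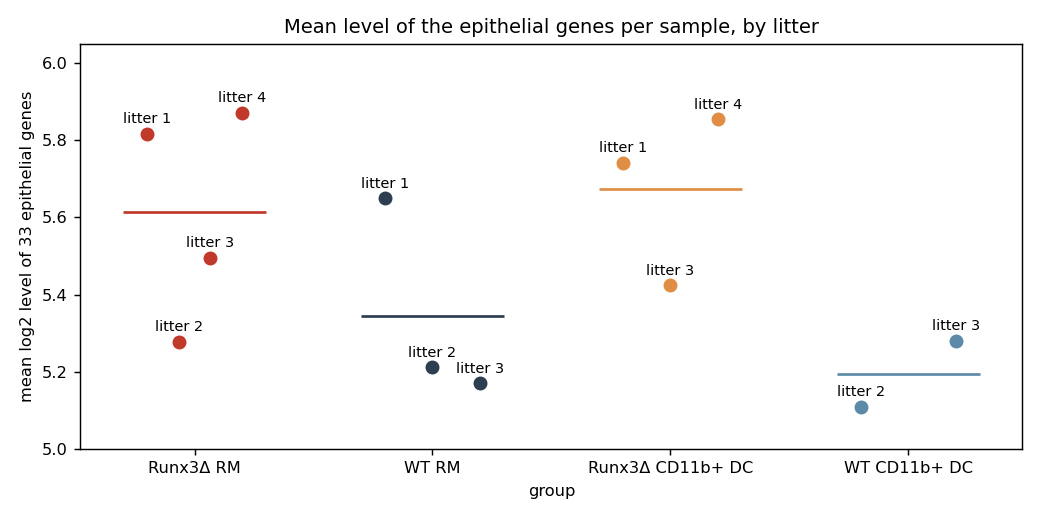
Mean log2 level of the 33 epithelial genes (vertical axis, which does not start at 0) in each sample, by group; each point is a sample marked with its litter, and lines are group means. Samples of litters 1 and 4 lie at 5.65 or above, and those of litters 2 and 3 at 5.49 or below.

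The 2 cell types were then compared within each genotype. After adjustment, the junction genes Cdh1 and Epcam were lower in RM in both genotypes. In Runx3Δ samples, 0 of 33 genes were higher in RM at an adjusted p under 0.05, against 3.73% of all rows. There 3 were lower (Epcam, Cdh1 and Cdh17, 9.09%), against 4.12%. In WT samples, 1 gene was higher in RM (Car1, 3.03%), against 3.05% of all rows, and 2 were lower (Epcam and Cdh1, 6.06%), against 3.02%. In a fit blocked by litter, Epcam, Cdh1 and Cdh17 were again lower in Runx3Δ RM than in Runx3Δ CD11b+ DC (3.8% of all rows were). In that fit 3 genes were higher in Runx3Δ RM, against 3.57% of all rows, namely Krt19 (0.49, adjusted p = 0.0392), Lgals4 (0.44, adjusted p = 0.0425) and Elf3 (0.48, adjusted p = 0.0275), whose adjusted p ranged to 0.968, 0.882 and 0.536 over the alternatives.

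Cdh1, E-cadherin, was at 6.48, 6.02, 6.32 and 6.31 in Runx3Δ RM and 6.01, 5.59 and 5.69 in WT RM. In CD11b+ DC it was at 8.85, 8.92 and 8.85 in Runx3Δ samples and 8.93 and 9.03 in WT samples. All CD11b+ DC samples lay more than 2 log2 units above all RM samples. RM minus CD11b+ DC was -2.60 ± 0.12 (SE, adjusted p = 3.69e-06) in Runx3Δ and -3.21 ± 0.15 (SE, adjusted p = 4.21e-06) in WT samples. Between genotypes, all Runx3Δ RM samples lay above all WT RM samples (0.52 ± 0.12 SE, adjusted p = 0.272), and all Runx3Δ CD11b+ DC samples below both WT CD11b+ DC samples (-0.10 ± 0.15 SE, adjusted p = 0.959).

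Epcam, a homotypic adhesion molecule, was at 5.48, 5.34, 5.26 and 5.52 in Runx3Δ RM and 5.30, 5.30 and 4.75 in WT RM, against 6.43, 6.39 and 6.50 in Runx3Δ CD11b+ DC and 5.93 and 6.73 in WT CD11b+ DC. RM lay below CD11b+ DC in every sample of both genotypes. The difference was -1.04 ± 0.19 (SE, adjusted p = 0.00542) in Runx3Δ and -1.21 ± 0.22 (SE, adjusted p = 0.00766) in WT samples, and in WT samples it did not pass without WT CD11b+ DC replicate 2 (-0.81). For Cdh17, RM minus CD11b+ DC was -2.54 ± 0.30 (SE, adjusted p = 0.000409) in Runx3Δ samples and -0.89 ± 0.36 (SE, adjusted p = 0.223) in WT samples. Car1 was higher in WT RM than in WT CD11b+ DC by 2.39 ± 0.46 (SE, adjusted p = 0.00945), which did not pass when either WT CD11b+ DC sample was left out, and in Runx3Δ samples the difference was 0.88 ± 0.38 (SE, adjusted p = 0.239). The tight junction claudins Cldn3 (5.48 to 6.12 over the 12 samples), Cldn4 (5.85 to 6.40) and Cldn7 (5.12 to 5.67) did not pass, with differences of at most 0.32 on the log2 scale.

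The difference of the Runx3 effect between RM and CD11b+ DC was tested as an interaction. None of the 33 genes passed after adjustment with limma, and 0% of all rows passed. An unadjusted p under 0.05 was seen for 4 of the 33, against 3.91% of all rows. The 4 were Cdh1, Cdh17, Car1 and Tspan8, of which only Cdh1 had the higher fold change in RM. With the litter as a block there were 4 as well, against 4.87% of all rows, with Elf3 (0.46, higher in RM) in place of Tspan8.

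A further list of 40 epithelial genes, chosen for other functions and cell types of the gut epithelium, gave smaller differences. In RM, 31 were above 0 and 9 below, with a median of 0.07. There 0 met the thresholds of the methods, against 0.728% of all rows upwards and 0.731% downwards. In CD11b+ DC, 33 were above 0 and 7 below, with a median of 0.10. At the thresholds 1 was higher and 1 lower (2.5% each), against 0.633% of all rows upwards and 1.5% downwards. The higher one was Lypd8, a protein that keeps flagellated bacteria off the colonic epithelium, at 6.92, 5.37 and 7.38 in Runx3Δ CD11b+ DC, against 4.69 and 5.08 in WT CD11b+ DC (1.67 ± 0.64 SE, adjusted p = 0.651). The Runx3Δ sample of litter 3 again lay nearest to the WT samples. The lower one was Ocln, the tight junction protein occludin, at 6.43, 6.20 and 6.18 against 6.65 and 7.37 in the same groups (-0.74 ± 0.30 SE, adjusted p = 0.687).

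Between the cell types, 29 of the 40 lay above 0 (higher in RM) in Runx3Δ samples and 30 in WT samples, with medians of 0.06 and 0.10. At an adjusted p under 0.05 (limma), 2 of 40 were lower in RM in Runx3Δ samples (5%), against 4.12% of all rows. In WT samples 3 of 40 were lower (7.5%), against 3.02%. In both genotypes 0 were higher, against 3.73% of all rows in Runx3Δ and 3.05% in WT samples. The lower genes went the way of Cdh1. Plet1, a surface protein of epithelial progenitors, was at 8.00 to 8.72 in Runx3Δ RM and 8.12 to 8.39 in WT RM, against 10.8 to 11.2 in Runx3Δ CD11b+ DC and 11.2 to 11.5 in WT CD11b+ DC. RM minus CD11b+ DC was -2.76 ± 0.18 (SE, adjusted p = 1.23e-05) in Runx3Δ and -3.12 ± 0.21 (SE, adjusted p = 3.31e-05) in WT samples. Tjp3, a scaffold protein of tight junctions, was also lower in RM, with differences of -0.53 ± 0.09 (SE, adjusted p = 0.00477) in Runx3Δ and -0.60 ± 0.11 (SE, adjusted p = 0.00813) in WT samples, and Ocln in WT samples (-1.18 ± 0.30 SE, adjusted p = 0.0397).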

How the data were processed

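RNA of sorted cecal RM and CD11b+ DC was measured on 12 Affymetrix arrays, with 4 groups of 2 to 4 samples. Values were deposited on the log2 scale, as intensities that the authors obtained with RMA including a correction for GC content, and the submitters' processing notes name Partek and the build mm9. The methods name an exon array, whereas gene symbols were taken from the annotation of a gene-level array. Of 35556 rows, 21789 carry 1 gene symbol, 1621 several and 12146 none. Each of the 33 genes had a single row. The list was given with the series, and its members, the further lists and the tests were chosen with earlier results of these data known. One linear model over the 4 groups was fitted to all rows (limma 3.58.1, R 4.3.3), p-values were adjusted over all rows (Benjamini-Hochberg), and the difference between cell types was an interaction contrast. Tables and plots were made with Python 3.11.15, pandas 2.3.3 and matplotlib 3.10.9. Values in every sample are given for genes at the thresholds of the methods in either genotype comparison and for the widest range in each role, and for genes that stood out after their values had been seen.

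Samples with 1 litter number were taken as littermates, as the labels mark them. The main fit had no term for the litter, so its SE and p-values treat all samples as independent. The litter entered only through alternatives and the differences within litters. After removal of group means, 13 pairs of samples of the same litter had a median correlation of 0.0958 (-0.0412 to 0.358), 40 pairs of different litters one of -0.0347, and the 3 pairs of Runx3Δ and WT RM one of 0.0342 (-0.0412 to 0.207). Deviations from a group mean cancel out within the group, so these correlations are tied to each other and the pairs are not independent. The alternatives were the litter as a block, the samples of 2 groups alone, the methods' test on 2 groups, array weights, an intensity trend with a robust prior, median centring, quantile normalization, rows at a log2 level of 5 or more, a table with 1 row per gene, chosen or averaged, each sample left out in turn and, added after the per-sample values had been seen, litters 2 and 3 alone. Tested on simulated data of 35556 rows, the fit recovered 146 of 200 rows with a log2 change of 1 in RM. It recovered 118 of 200 in CD11b+ DC, and called 7 of 35156 unchanged rows in each comparison. The simulated samples were independent, without any difference between litters, so these counts do not describe rows that differ by litter. Arrays give no counts, and their number limits the precision. P-values of the main fit set a difference against the spread between these pooled samples, estimated over all 4 groups.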

Additional observations from a re-analysis of the deposited data

Results flagged for a closer look

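In Runx3Δ RM, the only group of 4 samples, 33 genes were examined for a sample far from the other 3, and 2 were found, where chance gives about 1 in 20. Fabp2 was at 5.09 in replicate 1, against 4.63 to 4.65 in the others, a gap of 0.953 of the range of the group. Reg3g was at 4.72 in replicate 4, against 3.53 to 3.68 in the others, a gap of 0.875 of the range. For Cdh1 all Runx3Δ samples lay above all WT samples in RM, against 4.12% of all rows. In CD11b+ DC all lay below, against 12.6% of all rows, but by a very small gap. There the highest Runx3Δ sample was at 8.925 and the lowest WT sample at 8.926, with a log2 fold change of -0.10 ± 0.15 (SE). The difference between the fold changes was 0.62 ± 0.19 (SE) on the log2 scale and did not pass as an interaction (adjusted p = 0.9996).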

How the results depend on the processing

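Over 23 alternatives (21 for the interaction), no gene called in the main fit changed its direction. Fabp2 in RM, lower at the thresholds without WT RM replicate 2, was not called in the main fit. The counts of epithelial genes at the thresholds of the methods were 3 to 8 higher and 0 to 1 lower in Runx3Δ RM, and 6 to 10 higher and 0 to 1 lower in Runx3Δ CD11b+ DC, when 1 sample was left out. The lowest and highest counts of higher genes in RM came without WT RM replicate 2 and without WT RM replicate 1. Of all 35556 rows, 571 and 288 were higher in RM under these settings, against 259 in the main fit. In RM 0 to 1 genes passed after adjustment (Car2, without WT RM replicate 1). Between RM and CD11b+ DC, 0 to 1 WT genes were higher and 1 to 3 lower with 1 sample left out, and 3 to 4 Runx3Δ genes were lower. The WT samples of the 2 groups alone gave 1 lower gene, and the methods' test gave 0 higher and 0 lower WT genes. With the litter as a block, 3 genes were higher in Runx3Δ RM than in Runx3Δ CD11b+ DC, against 0 without it, and the median of the genotype difference in CD11b+ DC was 0.09. The block also removed the threshold calls of Pigr in RM and Krt8 in CD11b+ DC, and of the 4 genes with an unadjusted p under 0.05 for the interaction it replaced Tspan8 by Elf3. Of the median fold changes of the genotype comparisons, that of RM was 0.12 to 0.35 and that of CD11b+ DC 0.26 to 0.44 when 1 sample was left out. Clca3b, Dmbt1 and Gpx2 in RM, and Cdh17, Car2 and Dmbt1 in CD11b+ DC, were at the thresholds under all 23 alternatives, whereas Car1 and Clca3b in CD11b+ DC were not under the methods' test or with litters 2 and 3 alone (Car1 0.70 and Clca3b 0.64). The causes were not tested. Leaving out a WT CD11b+ DC sample leaves 1 array in that group, which is then assumed to vary like the others.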
